A study of Mus musculus with 10 samples.

Results

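The T-box transcription factor genes of the limb bud (Tbx2, Tbx3, Tbx4, Tbx5, Tbx15 and Tbx18) and the homeobox genes Pitx1 and Isl1 were followed in embryonic mouse limb buds with and without Dicer. All probe sets annotated to exactly 1 of these 8 symbols were taken, which gave 18 of the 45101 probe sets of the table. Tbx3 had 5 of them, Tbx2 had 1, and each other gene had 2. Symbols alone picked the probe sets, without a cut on measured values. The 8 genes themselves were chosen with earlier results of these data known. Of the 18 probe sets, 13 passed a filter on low signal, and each of the 8 genes kept at least 1.

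The Dicer mutant group held 5 arrays labelled as from embryos in which the prxcre driver deletes Dicer in the limb, and the wild type group held 5 arrays, both numbered 1 to 5. The prxcre driver is a Cre transgene active in limb bud mesenchyme, so ectoderm, vessels, blood and migrating muscle cells are expected to keep their Dicer. The parents were a mouse with 1 floxed Dicer allele and the driver and a mouse homozygous for the floxed allele, so by the cross every embryo, wild type included, carries at least 1 floxed allele. No source used here states age, strain, forelimb or hindlimb, or the number of embryos per array, and p-values measure only the spread between these samples, which may be technical. Values are the authors' Affymetrix intensities, called signals below. A fold change is the Dicer mutant over the wild type group, on the log2 scale where so named.

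T-box proteins are transcription factors that bind DNA through a shared domain. Tbx5 is transcribed in the early forelimb and starts its outgrowth, while Pitx1, Isl1 and Tbx4 act in the hindlimb: Isl1 acts in the field before the bud forms, and Pitx1 drives Tbx4 and hindlimb shape. Tbx2 and Tbx3 are mainly repressors, transcribed in stripes along the anterior and posterior margins of the bud. Tbx15 and Tbx18 belong to another branch of the family and mark proximal and connective tissue mesenchyme, where Tbx15 is needed for normal shoulder and limb skeleton.

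Dicer1, the targeted gene, was read first. At 1427941_at the signals were 226, 221, 215 and 205 in Dicer mutant arrays 1, 3, 4 and 5 and 425, 372, 390 and 706 in wild type arrays 1, 3, 4 and 5. Under number 2 the label Dicer mutant stood on 360 and the label wild type on 233, so both arrays numbered 2 went against their labels. The groups were therefore compared in the 10 arrays as labelled and in the 8 arrays without number 2, a choice made with this mismatch known. Where values of all 5 numbers are given, those of number 2 stand under their labels. The second Dicer1 probe set, 1460571_at, ran the same way, and no source used here places either one relative to the deleted part. The first principal component (37.7% of the variance) set numbers 1 to 3 apart from 4 and 5, so values within each side are given as well. The mesenchyme markers Prrx1, Prrx2, Twist1, Lhx2, Lhx9, Msx1, Shox2 and Hand2 passed the filter, all 8 of 8, with none at 0, with summed signals of 12760 to 15121 in the 5 Dicer mutant arrays and 12526 to 14508 in the 5 wild type arrays. The filter was also passed by markers of ectoderm (7 of 7 listed genes), vessels (4 of 5), muscle (4 of 6), blood (2 of 3), macrophages (4 of 5) and cartilage (3 of 5). Of 9 neuron markers on the array 2 passed. In bulk samples fewer cells of a type and less RNA per cell cannot be told apart.

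As labelled, none of the 13 tested probe sets differed between Dicer mutant and wild type limb buds. Limma called 0 of 13 at a Benjamini-Hochberg adjusted p below 0.05, where 0% of all 22519 tested probe sets were called, and 0 of 13 had an unadjusted p below 0.05 (2.81% of all). Log2 fold changes ran from -0.17 (Tbx5 1425694_at) to 0.40 (Tbx4 1456033_at), with a median of 0.0074 against -0.021 over all tested probe sets. In the 8 arrays limma also called 0 of 13, where 1.68% of all tested probe sets were called, and 2 of 13 had an unadjusted p below 0.05 (12.7% of all). There the log2 fold changes ran from -0.23 (Tbx15 1422195_s_at) to 0.58 (Tbx4 1456033_at), with 7 above 0 and 6 below. A block on the replicate number called 1 of 13 in the 8 arrays, Tbx4 1456033_at, as higher. It called 5.41% of all tested probe sets, 2.4% as higher and 3.01% as lower.

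**Figure D1:**
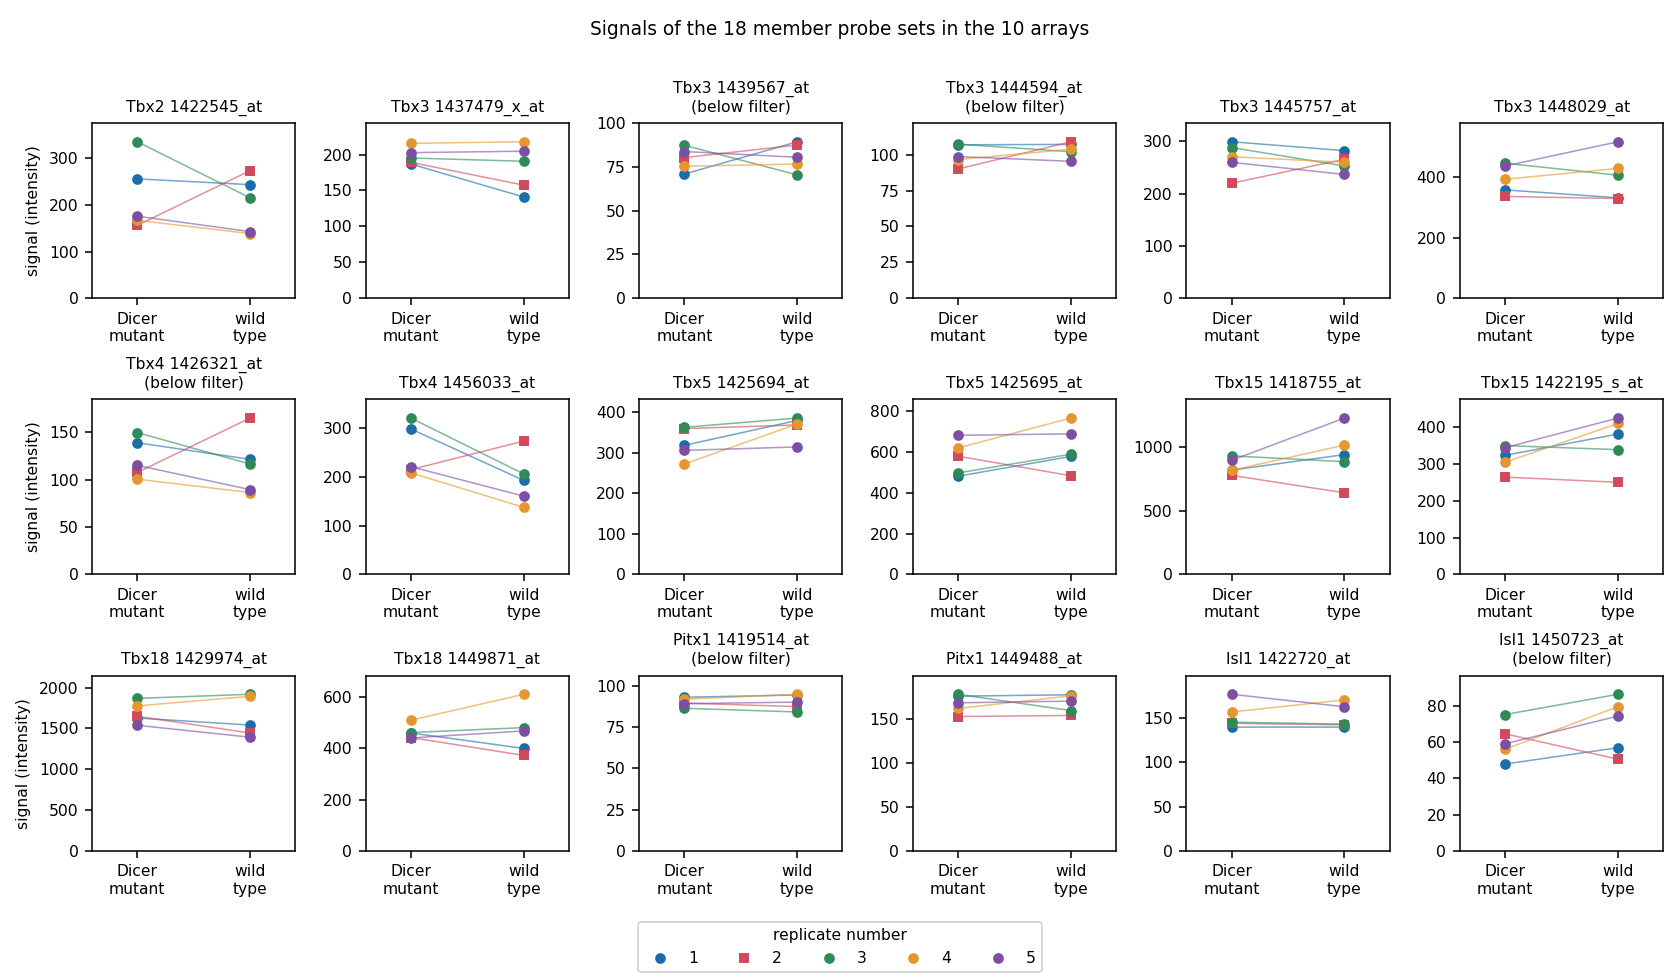
Signal (linear intensity, axes from 0) of each of the 18 probe sets in Dicer mutant (left) and wild type (right) arrays, with lines joining arrays of the same replicate number and squares marking number 2. Tbx4 1456033_at slopes down from mutant to wild type in numbers 1, 3, 4 and 5 and up in number 2, while the Pitx1 panels are flat at 152 to 178 and 84 to 95.

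Tbx4, the T-box gene of hindlimb outgrowth, stood higher in the Dicer mutant arrays in every number but 2. At 1456033_at the signals were 298, 320, 208 and 220 in Dicer mutant arrays 1, 3, 4 and 5, against 192, 205, 137 and 160 in wild type arrays 1, 3, 4 and 5. The lowest mutant array lay just above the highest wild type array, so the groups of 4 did not overlap, the only probe set of the 18 of which this was true. Of all tested probe sets 9.09% did not overlap, 4.12% with the mutant arrays above and 4.97% with them below, while in the 10 arrays 0.4% did not (0.107% higher, 0.293% lower) and none of the 18. The fold was 1.5 in the 8 arrays (log2 value 0.58, SE 0.17, n = 4 in each group, 95% interval 0.20 to 0.97, unadjusted p = 0.00745, limma adjusted p = 0.157), which did not pass over all probe sets. Blocked on the replicate number, the same value had an SE of 0.057 and a limma adjusted p of 0.00705. The block also called 2 of 4 tested macrophage markers, both higher (Ctss and Tyrobp), where it called 2.4% of all tested probe sets as higher. The others, Csf1r at -0.0059 and Fcer1g at 0.16, were not called. Summed macrophage signals were 1167 to 1445 in the Dicer mutant and 1091 to 1298 in the wild type arrays of the 8. Of 7 tested ectoderm markers the block called 1, Krt14, as lower (3.01% of all), while 5 of the 7 had values above 0. In the 10 arrays the block called 0 markers of either list. The part of these markers in the Tbx4 value was not tested, nor that of limb type, which no source used here states. The difference was 0.63 within numbers 1 and 3 (limma adjusted p = 0.0198, where 3.61% of all tested probe sets were called, 1.42% as higher) and 0.53 within numbers 4 and 5 (limma adjusted p = 0.386), so its direction held on both sides of the first component. Leaving out 1 array at a time gave 0.47 to 0.68, with limma adjusted p of 0.154 to 0.340.

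The arrays numbered 2 ran the other way for Tbx4. The array labelled Dicer mutant 2 had 214 at 1456033_at and the array labelled wild type 2 had 273. With these included the log2 value was 0.40 (SE 0.18, n = 5 in each group, 95% interval -0.0037 to 0.80, limma adjusted p = 1.00). The second Tbx4 probe set, 1426321_at, lay below the filter of 151 on average and gave the same direction in each number. It had 139, 150, 100 and 115 in Dicer mutant arrays 1, 3, 4 and 5, against 121, 116, 86.4 and 89.4 in wild type arrays 1, 3, 4 and 5. The groups overlapped there, and number 2 again ran the other way, with 108 in the array labelled Dicer mutant 2 and 165 in the array labelled wild type 2. Fitted without the filter, 1426321_at had a log2 fold change of 0.28 in the 8 arrays (SE 0.15, limma adjusted p = 0.654, and 0.0642 with the block). The distance of these dim signals from background is unknown, as no detection calls are at hand. This also holds at 1456033_at, where wild type 4 had 137, below the filter, and wild type 5 had 160.

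Tbx4 is shown with the window around its annotated start because it was the single member called with the block. The RefSeq table of build GRCm38.p6 held a window for 3 of the 8 genes (Tbx4, Tbx18 and Isl1), each of 300 bases. For Tbx4 it is chr11:85896515-85896814 on the plus strand. Capitals mark the 50 bases from the start site on.
Tbx4: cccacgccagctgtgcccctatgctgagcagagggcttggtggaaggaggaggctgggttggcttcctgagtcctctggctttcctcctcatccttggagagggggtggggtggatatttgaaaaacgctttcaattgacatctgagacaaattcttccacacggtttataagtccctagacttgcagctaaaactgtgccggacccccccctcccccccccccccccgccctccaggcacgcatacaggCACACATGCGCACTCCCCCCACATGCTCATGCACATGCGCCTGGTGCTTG
The window was searched on both strands for the T-box site AGGTGTGA (its complement TCACACCT), held by 1.28% of all 32851 such windows, and for the PITX site TAATCC (its complement GGATTA), held by 7.06%. Neither set of letters overlaps the other. Neither was found in the Tbx4 or Tbx18 window, and the Isl1 window held 1 TAATCC and no T-box site. No match says only that these letters are not in this window.

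Tbx2, a repressor of the bud margins and next to Tbx4 on chromosome 11 in the RefSeq gene order, had differences of the same sign as Tbx4 in each number. Its probe set 1422545_at had 256, 335, 167 and 176 in Dicer mutant arrays 1, 3, 4 and 5, against 243, 215, 138 and 143 in wild type arrays 1, 3, 4 and 5. Mutant arrays were higher in 4 of 4 numbers, yet the groups overlapped widely, since numbers 1 and 3 were brighter than 4 and 5 in both groups. The log2 value was 0.32 (SE 0.26, n = 4 in each group, limma adjusted p = 0.731, and 0.102 with the block), and 0.36 within numbers 1 and 3 and 0.29 within 4 and 5. With array weights the value turned to -0.12 (limma adjusted p = 0.726). The arrays numbered 2 ran the other way, with 156 in the array labelled Dicer mutant 2 and 273 in the array labelled wild type 2, and the 10 arrays gave 0.095 (SE 0.25, limma adjusted p = 1.00). In all 5 of 5 numbers the difference between the labels had the same sign for Tbx2 and for both Tbx4 probe sets, and also for Tbx3 1445757_at, whose gene lies on chromosome 5. Of all tested probe sets 12% had this order of signs, above 0 in numbers 1, 3, 4 and 5 and below 0 in number 2.

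**Figure D2:**
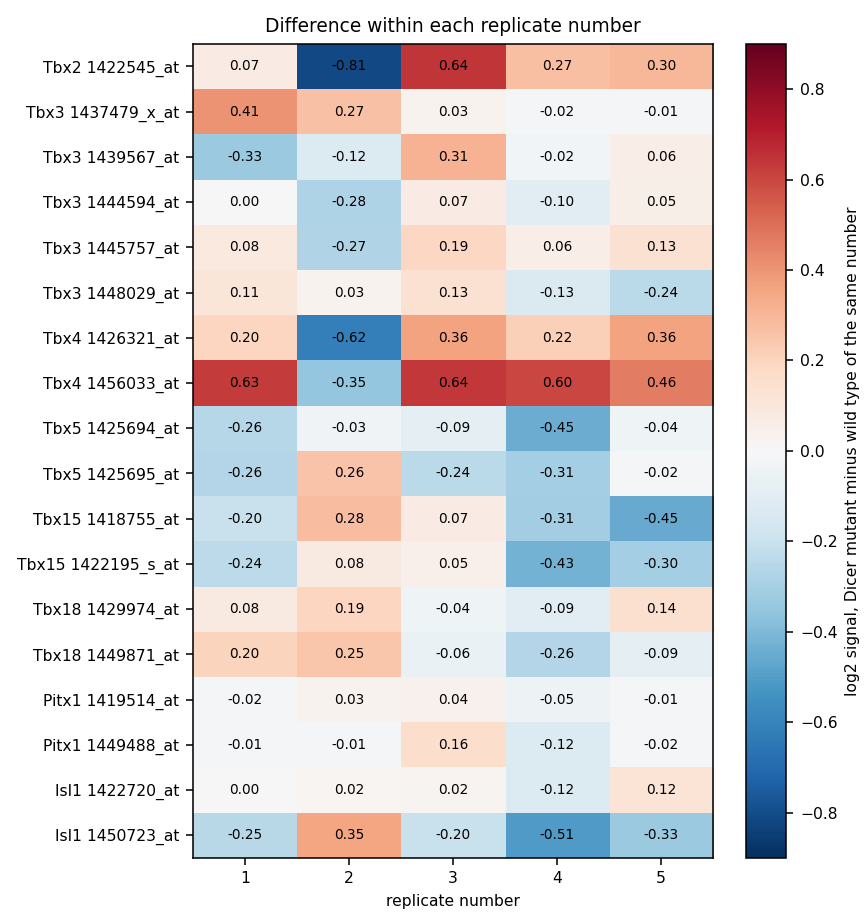
Log2 signal of the Dicer mutant array minus that of its wild type counterpart, for the 18 probe sets (rows) and the 5 replicate numbers (columns). Tbx2, both Tbx4 rows and Tbx3 1445757_at are positive in numbers 1, 3, 4 and 5 and negative in number 2, where Tbx2 stands at -0.81 and Tbx3 1445757_at at -0.27.

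Tbx3, the other margin repressor, gave no common direction over its probe sets. Probe set 1448029_at had 358, 336, 445, 393 and 436 in Dicer mutant arrays 1 to 5, against 331, 329, 406, 429 and 516 in wild type arrays 1 to 5. The array labelled mutant was the higher in numbers 1, 2 and 3 and the lower in 4 and 5, and the groups overlapped. In the 8 arrays its log2 fold change was -0.031 (SE 0.14, limma adjusted p = 0.975), with 0.12 within numbers 1 and 3 and -0.18 within 4 and 5. Probe set 1437479_x_at, whose suffix marks probes that may bind other transcripts, stood at 0.10 (SE 0.13, limma adjusted p = 0.862) and 1445757_at at 0.12 (SE 0.079, limma adjusted p = 0.656). At 1445757_at the signal was higher in the mutant array in 4 of 4 numbers. The 10 arrays as labelled gave -0.019 (SE 0.13) for 1448029_at, 0.14 (SE 0.11) for 1437479_x_at and 0.038 (SE 0.089) for 1445757_at, limma adjusted p = 1.00 for each. The remaining pair, 1439567_at and 1444594_at, lay below the filter at signals of 70.4 to 109 in the 10 arrays.

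Tbx5, the forelimb initiation gene and the neighbour of Tbx3 on chromosome 5, stood lower in the Dicer mutant arrays at both probe sets without passing the test. Probe set 1425694_at had 318, 359, 363, 272 and 306 in Dicer mutant arrays 1 to 5, against 380, 368, 385, 371 and 314 in wild type arrays 1 to 5. The mutant array was the lower in numbers 1, 3, 4 and 5, and the groups overlapped. In number 2, whose labels Dicer1 went against, the array labelled mutant was also the lower, with a log2 difference of -0.035. Its log2 fold change was -0.17 in the 10 arrays (SE 0.096, 95% interval -0.38 to 0.036, limma adjusted p = 1.00) and -0.21 in the 8 (SE 0.11, limma adjusted p = 0.484). With array weights in the 8 arrays it was -0.34 and passed (limma adjusted p = 0.0339), 1 of 13 members, where array weights called 11.6% of all tested probe sets, 7.03% as lower.

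The other Tbx5 probe set, 1425695_at, had 481, 579, 497, 619 and 681 in Dicer mutant arrays 1 to 5, against 578, 484, 589, 766 and 689 in wild type arrays 1 to 5. The mutant array was lower in numbers 1, 3, 4 and 5, and in number 2 the array labelled mutant was higher. The 8 arrays gave -0.21 (SE 0.14, limma adjusted p = 0.649, and 0.152 with the block), but array weights gave 0.0077. The 10 arrays as labelled gave -0.11 (SE 0.14, limma adjusted p = 1.00). At this probe set the spread between numbers exceeded the difference between groups: 1425695_at lay at 481 to 589 in numbers 1 to 3 and at 619 to 766 in numbers 4 and 5. At 1425694_at the sides overlapped, at 318 to 385 and 272 to 371.

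**Figure D3:**
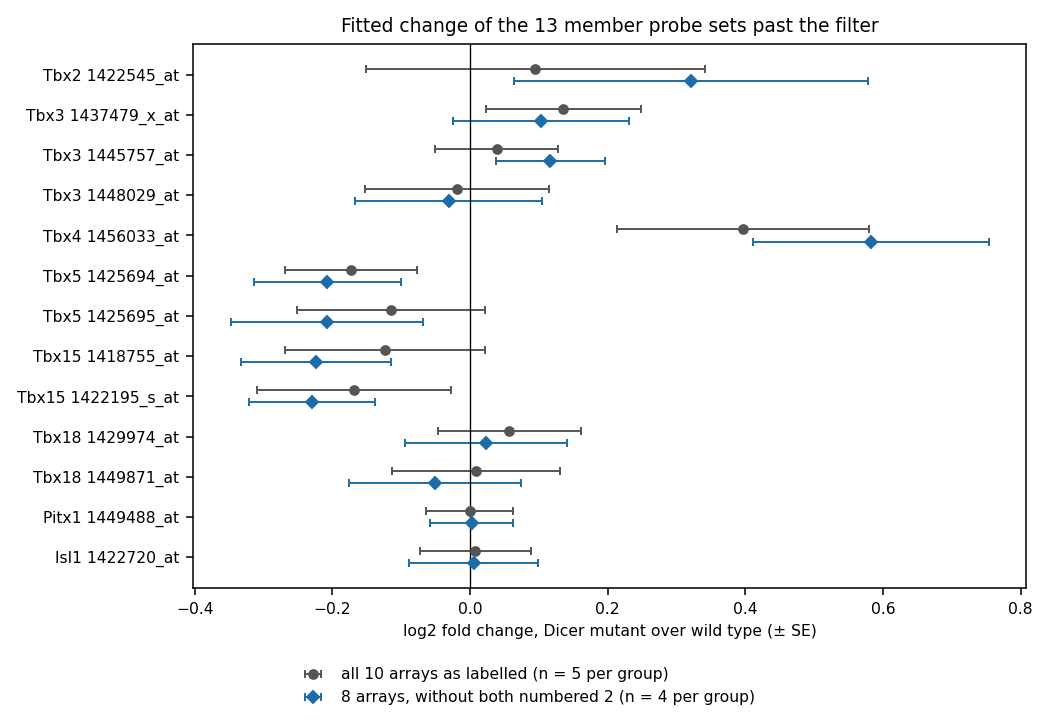
Log2 fold change of Dicer mutant over wild type (points) with its SE (bars) for the 13 tested probe sets, in all 10 arrays (grey circles) and in the 8 arrays without number 2 (blue diamonds). Tbx4 1456033_at lies farthest from 0, at 0.40 and 0.58, both Tbx5 and both Tbx15 probe sets lie below 0, and Pitx1 and Isl1 lie at 0.

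Tbx15, a gene of proximal and dermal mesenchyme, had similar small negative values at both probe sets. Probe set 1418755_at had 817, 777, 929, 816 and 894 in Dicer mutant arrays 1 to 5, against 939, 640, 883, 1014 and 1226 in wild type arrays 1 to 5. The mutant arrays spanned a narrower range than the wild type arrays and lay inside it. In the 8 arrays its log2 fold change was -0.22 (SE 0.11, limma adjusted p = 0.455). Probe set 1422195_s_at has a suffix that marks probes shared between transcripts. It gave -0.23 (SE 0.091, 95% interval -0.44 to -0.025, unadjusted p = 0.0320, limma adjusted p = 0.321), with the mutant array lower in 3 of 4 numbers. Both values came mainly from numbers 4 and 5: they were -0.064 and -0.095 within numbers 1 and 3, and -0.38 and -0.37 within 4 and 5. As labelled, the 10 arrays gave -0.12 (SE 0.15) and -0.17 (SE 0.14), limma adjusted p = 1.00 for both.

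Tbx18, the closest relative of Tbx15 in this set and like it a mesenchymal gene, did not differ beyond the spread. Probe set 1429974_at had 1628, 1650, 1869, 1778 and 1539 in Dicer mutant arrays 1 to 5, against 1542, 1444, 1919, 1894 and 1393 in wild type arrays 1 to 5. The groups overlapped almost fully. The log2 fold change was 0.057 in the 10 arrays (SE 0.10, 95% interval -0.17 to 0.29, limma adjusted p = 1.00) and 0.023 in the 8 (SE 0.12, limma adjusted p = 0.979). Probe set 1449871_at gave 0.0089 in the 10 arrays (SE 0.12) and -0.051 in the 8 (SE 0.12, limma adjusted p = 0.949), its mutant arrays at 440 to 510 and its wild type arrays at 372 to 611.

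Pitx1, the homeobox gene of hindlimb identity, was nearly flat over all arrays. Probe set 1449488_at had 176, 152, 178, 162 and 168 in Dicer mutant arrays 1 to 5, against 177, 154, 159, 176 and 170 in wild type arrays 1 to 5. The brightest array was 1.17 times the dimmest, and all lay near the filter of 151. The log2 fold change was 0.0020 in the 8 arrays (SE 0.061, 95% interval -0.14 to 0.14, limma adjusted p = 0.998) and -0.00073 in the 10 (SE 0.064, limma adjusted p = 1.00). Probe set 1419514_at lay below the filter, at 86.5 to 93.2 in Dicer mutant and 84.3 to 95 in wild type arrays. Without detection calls these signals do not show whether Pitx1 was transcribed in the buds, so they do not tell which limbs were taken.

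Isl1, a LIM homeobox gene of the early hindlimb field and of motor and sensory neurons, was likewise at the filter. Probe set 1422720_at had 140, 144, 145, 157 and 177 in Dicer mutant arrays 1 to 5, against 140, 142, 143, 171 and 163 in wild type arrays 1 to 5. Its log2 fold change was 0.0049 in the 8 arrays (SE 0.094, 95% interval -0.21 to 0.22, limma adjusted p = 0.996) and 0.0074 in the 10. The arrays split by number and not by group, at 140 to 145 in numbers 1 to 3 and 157 to 177 in numbers 4 and 5. Probe set 1450723_at lay below the filter, with 47.9, 75.3, 56.1 and 59.2 in Dicer mutant arrays 1, 3, 4 and 5 against 57, 86.5, 79.7 and 74.4 in wild type arrays 1, 3, 4 and 5. There the mutant array was lower in 4 of 4 numbers (log2 fold change -0.32 without the filter, SE 0.16, limma adjusted p = 0.596, and 0.0767 with the block), and the 2 probe sets had the same sign in 2 of 5 numbers. The neuron markers had summed signals of 1053 to 1126 in the Dicer mutant arrays and 995 to 1158 in the wild type arrays of the 10. Only 2 of the 9 summed markers passed the filter, so these sums are mostly dim signals and say little about neuron content. The part of neurons in the Isl1 values was not tested.

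Between the sides of the first component, 3 of the 13 tested probe sets did not overlap: Isl1 1422720_at, Tbx5 1425695_at and Tbx3 1437479_x_at, each lower in numbers 1 to 3. Such a separation in that direction was seen in 8.34% of all tested probe sets, in the other direction in 11.7%, and in either in 20% (4512 of 22519). Tbx3 1437479_x_at lay at 141 to 195 in numbers 1 to 3 and 203 to 218 in numbers 4 and 5. Tbx2 ran the opposite way, with a geometric mean of 240 in numbers 1 to 3 and 155 in numbers 4 and 5, as did Tbx4 1456033_at with 246 and 178. The summed signals of blood and of cartilage markers moved with the same split. They were 4691 to 9566 and 4947 to 5930 in numbers 1 to 3, and 9583 to 12275 and 3630 to 4400 in numbers 4 and 5. The blood sum was mostly Hbb-bh1, with geometric means of 6275 in numbers 1 to 3 and 10130 in 4 and 5. Alas2 (403 and 398) and Hba-a1 (108 and 101) did not rise. Among the cartilage markers Matn1 ran against the sum, at 76.5 and 88.1. The part of blood and cartilage in the T-box values was not tested, and no label says what the numbers stand for.

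Genes around these factors in the limb were taken from lists by role, each gene by 1 probe set. Of 13 tested limb initiation and outgrowth genes, 1 was called in the 8 arrays as higher and 0 as lower, where 0.928% of all tested probe sets were called higher and 0.75% lower. The called gene was Sall4, a zinc finger gene that Tbx5 activates in the forelimb. Its signal averaged 352 in the Dicer mutant and 198 in the wild type arrays as geometric means (log2 value 0.83, SE 0.16, n = 4 in each group, limma adjusted p = 0.0408), while the 10 arrays gave 0.38 (SE 0.32, limma adjusted p = 1.00). The call was lost on leaving out 1 array: without any 1 of wild type 1, 3 or 4 or Dicer mutant 1, 3, 4 or 5, 0 context genes were called, and without wild type 5 there were 4. The block on the 8 arrays called 2 genes of this list as higher (2.4% of all tested probe sets) and 1 as lower (3.01% of all). These were Sall4, Zbtb16 (log2 value 0.48) and, as lower, Aldh1a2, the retinoic acid synthesis enzyme, at -1.03. In the 10 arrays the block called 0 of them, with Zbtb16 at 0.26 (SE 0.19) and Aldh1a2 at -0.51 (SE 0.45), limma adjusted p with the block 0.898 for both.

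The Hox genes that differ between limb types were not called in either set of arrays, 0 of 2 tested for the forelimb list and 0 of 2 for the hindlimb list. Of all tested probe sets 0% were called in the 10 arrays and 1.68% in the 8, so so few genes say little. Hoxc5 and Hoxc6, transcribed in the forelimb region, stood at 0.16 (SE 0.083, limma adjusted p = 0.476) and 0.095 (SE 0.11, limma adjusted p = 0.857) in the 8 arrays. Hoxc10 and Hoxc9, of the hindlimb region, stood at -0.054 (SE 0.10) and -0.030 (SE 0.072). In the 10 arrays Hoxc5 had 0.081, Hoxc6 0.059, Hoxc10 -0.067 and Hoxc9 -0.055. Of the other T-box genes 3 of 9 on the array passed the filter and 0 were called, with Eomes at -0.22 (limma adjusted p = 0.236) and Mga at 0.14 (limma adjusted p = 0.815) in the 8 arrays and -0.16 and 0.11 in the 10.

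Of 6 tested girdle and proximal partners of Tbx15 and Tbx18, 0 were called in the 8 arrays, where 1.68% of all tested probe sets were called. With the block 2 were, both lower, where the block called 3.01% of all tested probe sets as lower. These were Pax9 at -0.37 (SE 0.099, limma adjusted p = 0.119, and 0.0263 with the block) and Emx2, a homeobox gene needed for the scapula, at -0.62 (SE 0.21, limma adjusted p = 0.235, and 0.0192 with the block). Of 11 tested genes of the Tbx2 and Tbx3 regions 0 were called in the 8 arrays, and the block called 1, as lower. This was the ligand gene Bmp2, with a log2 fold change of -0.39 (SE 0.11, limma adjusted p = 0.148, and 0.0348 with the block). Shh, the signal of the posterior margin, had 0.82 (SE 0.39, limma adjusted p = 0.436). Of 7 tested PITX and LIM homeodomain genes and cofactors 0 were called with or without the block (5.41% and 1.68% of all tested probe sets). Lmo4 stood at -0.38 (limma adjusted p = 0.172) and Lhx9 at -0.13 (limma adjusted p = 0.50) in the 8 arrays. In the 10 arrays the block called 0 genes of these lists. There Pax9 had -0.30 (SE 0.094), Emx2 -0.30 (SE 0.25), Bmp2 -0.30 (SE 0.12), Shh 0.52 (SE 0.44), Lmo4 -0.23 (SE 0.13) and Lhx9 -0.17 (SE 0.074), limma adjusted p = 1.00 for each.

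**Figure D4:**
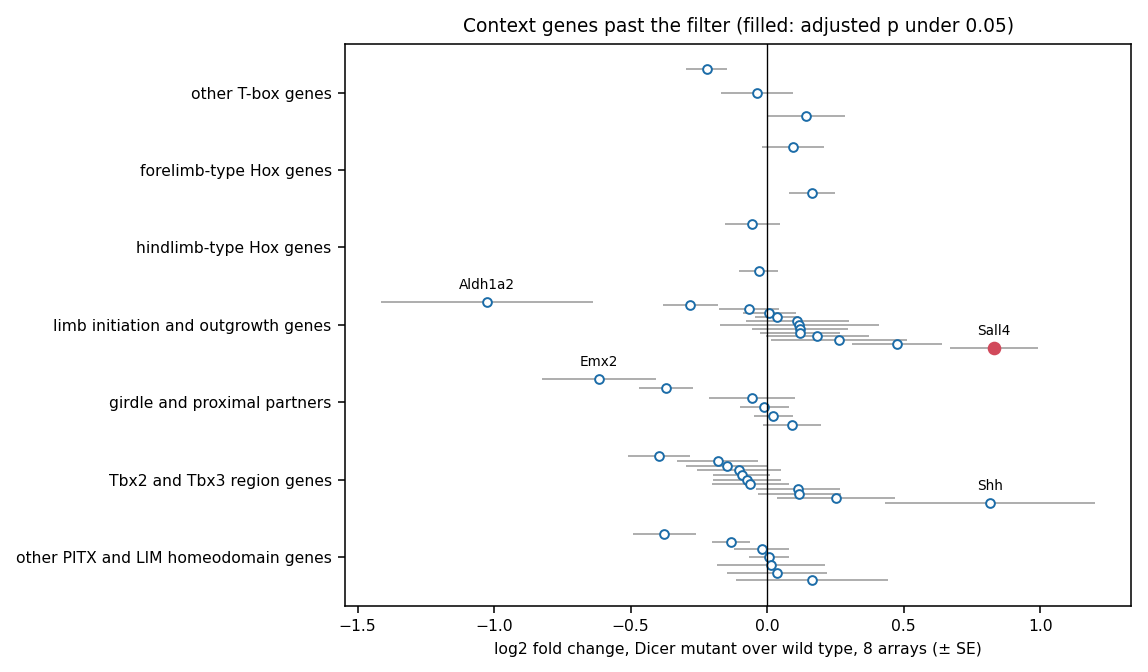
Log2 fold change of Dicer mutant over wild type in the 8 arrays (points, with SE bars) for the tested genes of 7 lists by role, filled where limma's adjusted p was under 0.05. Sall4 at 0.83 is the filled point, and Aldh1a2 at -1.03 and Shh at 0.82 have wide errors and open symbols.

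The genes whose signal within numbers was most like that of each member were read from 19525 to 19527 other annotated probe sets. The measure was Pearson's r over the 10 arrays after the mean of each number was subtracted. This leaves 5 independent differences, so an r near 1 is easily reached among so many probe sets, and the values are a description. For Tbx4 1456033_at they were Tmem245, Cic and Baz2a (r = 0.998, 0.996 and 0.994). For Tbx2 they were Pelp1, Klf13 and Grwd1 (0.997, 0.995 and 0.993). For Tbx5 1425695_at they were Keap1, Naxe and Tmem234 (0.999, 0.999 and 0.998), and for Tbx3 1448029_at Lama5, 9930021J03Rik and Hs3st3b1 (0.989, 0.985 and 0.982). Tbx15 1418755_at was nearest to Cd248, Fdft1 and Nop10 (0.995, 0.987 and 0.982) and Tbx18 1429974_at to Xpr1, Acsm2 and Csrnp2 (0.981, 0.979 and 0.962). Pitx1 1449488_at was nearest to Vegfd, Camk2n1 and Zfp397 (0.981, 0.977 and 0.973) and Isl1 1422720_at to Cpsf4, Slx4ip and Med29 (0.993, 0.990 and 0.978). No member was among the 3 nearest genes of another. Without the subtraction r was lower for each pair, from -0.52 (Isl1 and Med29) to 0.97 (Tbx2 and Pelp1). It was also below 0 for Tmem245, Naxe, Tmem234, Hs3st3b1 and Cd248 with their members.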

How the data were processed

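Limb bud RNA was biotin-labelled and each sample was put on its own Affymetrix array, per the labels' protocols. Values in the deposited table are the authors' linear intensities of 45101 probe sets. The submitters' processing notes name GCOS version 1.3, but no source used here states the summarization or scaling target. Array means trimmed by 2% ranged from 276 to 289 and medians from 145.9 to 152.8, so no normalization was added. The number of arrays limits the precision. Values below 1 were set to 1 before log2, and 64 control probe sets were dropped. The 22519 probe sets whose mean log2 signal reached the median (151 as a signal) were tested with limma 3.58.1 (R 4.3.3) using lmFit and a trended eBayes, Benjamini-Hochberg adjusted over all of them. The fit was tested on simulated data. Symbols came from the platform annotation, in which 0 probe sets with several symbols named a member, and gene order from the RefSeq table of GRCm38.p6.

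The members, lists and the 8-array comparison were chosen with earlier results of these data known. Named genes were every member probe set, called members of each list (or the 2 with the smallest p), Dicer1, and the 3 nearest genes of each member, where a list gene was read from its tested probe set of highest mean signal, without an _s_ or _x_ suffix where there was one.

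The meaning of the replicate numbers 1 to 5 is not stated. Deviations from the group means of same-numbered arrays correlated at 0.55, 0.55, 0.71 and 0.32 in the 8 arrays (numbers 1, 3, 4 and 5), all over 0.1, so the block is given beside the results there. The highest value with another number was 0.54, 0.54, 0.52 and 0.52. Numbers 1 and 3 lay close to it and number 5 below it. These values therefore do not establish that the numbers pair the arrays, and the block's calls depend on such pairing. In the 10 arrays number 2 gave -0.18, and the numbers were not taken to pair them. Alternatives were quantile normalization, median centring, offsets of 16 and 64, filtering at the 70th percentile or not at all, no trend, array weights, the block, each side of the first component, and leaving out each array.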

Additional observations from a re-analysis of the deposited data

Results flagged for a closer look

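Of 36 groups of 5 arrays checked (18 probe sets in both labelled groups), 1 held an array far from the other 4, where chance gives about 1 in 20. At Tbx5 1425694_at, wild type 5 had a signal of 314 and the other wild type arrays lay between 368 and 385. Dicer mutant 5 had 306 there.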

How the results depend on the processing

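Under every alternative run on the 10 arrays, 0 member probe sets and 0 of all probe sets were called. In the 8 arrays the count of called members was 1 with array weights (Tbx5 1425694_at), 1 with the replicate block (Tbx4 1456033_at), 1 within numbers 1 and 3 (Tbx4 1456033_at) and 0 under every other alternative. All probe sets called in the 8 arrays, 378, became 2612 with array weights, 1219 with the replicate block, 812 within numbers 1 and 3 and 0 within numbers 4 and 5, and 93 to 745 when 1 array was left out. Called genes of the context lists, 1 in the 8 arrays, became 8 with array weights, 6 with the block, 5 within numbers 1 and 3, and 0 with no filter, with the filter at the 70th percentile or within numbers 4 and 5. The probe set that gave the Sall4 call lay below the 70th percentile filter, so that setting did not test it. The block changed no other member's call. Tbx4 1456033_at, Tbx15 1422195_s_at and Tbx5 1425694_at kept their sign under every alternative in which they were tested.

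Some values changed sign, none of them called under any alternative, among them the Tbx2 and Tbx5 1425695_at values of the 8 arrays (0.32 and -0.21). In the 10 arrays, quantile normalization gave 0.011 for Tbx3 1448029_at and 0.012 for Pitx1 1449488_at, and median centring 0.0097 for Pitx1. Array weights gave -0.14 for Tbx2, 0.10 for Tbx3 1448029_at, 0.014 for Tbx5 1425695_at and -0.0088 for Tbx18 1429974_at. Within numbers 1, 2 and 3 they were -0.032 for Tbx2, -0.00027 for Tbx3 1445757_at, 0.091 for Tbx3 1448029_at, 0.051 for Tbx15 1418755_at and 0.045 for Pitx1. Within numbers 4 and 5 they were -0.015 for Tbx3 1437479_x_at, -0.17 for Tbx18 1449871_at and -0.00076 for Isl1. In the 8 arrays, array weights gave -0.12 for Tbx2, 0.096 for Tbx3 1448029_at, 0.0077 for Tbx5 1425695_at, -0.055 and 0.018 for Tbx18 1429974_at and 1449871_at and -0.014 for Pitx1. Within numbers 1 and 3 they were 0.12 for Tbx3 1448029_at and 0.072 for Tbx18 1449871_at, and within numbers 4 and 5 -0.015 for Tbx3 1437479_x_at, -0.069 for Pitx1 and -0.00076 for Isl1.

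Leaving out 1 array moved values across 0 in the 10 arrays for Isl1 1422720_at (-0.047 to 0.051), Pitx1 1449488_at (-0.030 to 0.032), Tbx18 1449871_at (-0.067 to 0.11), Tbx2 (-0.077 to 0.22), Tbx3 1445757_at (-0.0040 to 0.11) and Tbx3 1448029_at (-0.086 to 0.076). In the 8 arrays it did so for Isl1 1422720_at (-0.062 to 0.056), Pitx1 1449488_at (-0.031 to 0.028), Tbx18 1429974_at (-0.065 to 0.090), Tbx18 1449871_at (-0.14 to 0.061), Tbx3 1437479_x_at (-0.030 to 0.18) and Tbx3 1448029_at (-0.14 to 0.073). The cause of these changes was not tested. Members near or below the filter of 151 (both Pitx1, both Isl1, Tbx4 1426321_at and a pair of Tbx3 probe sets) lie at an unknown distance from background. So do the dimmer arrays of Tbx4 1456033_at and Tbx2, such as wild type 4 at 137 and 138.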
